A study of Homo sapiens with 7 samples.

Results

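The comparison concerned the RNA of NCI-H520 cells in which PARN was silenced, set against RNA of the same cells given either control plasmid. NCI-H520 is an established human line of squamous lung carcinoma. The comparison rests on 3 of the 7 arrays of the series: PARN shRNA, empty vector and non-target shRNA, a control hairpin not aimed at a deadenylase, with 1 array each. All 7 cultures were transfected with 6 µg of pLKO.1 plasmid, received puromycin at 6 µg/mL from 12 h on and were harvested at 72 h, so selection and transfection are common to silenced and control cells. The other 4 arrays, of cells given CNOT6, CNOT6L, CNOT7 or NOC (nocturnin) shRNA, serve here only as further values beside each gene. Neither untransfected cells nor a separate second PARN hairpin were analysed here, so effects of PARN loss and of the shRNA itself cannot be told apart.

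Probes entered when they were well above background on the 3 arrays and brighter than the median of such probes, which left 17026 of 42405 gene probes. They named 10890 of 19063 gene symbols on the array. Levels are log2 signals from which the 75th percentile of the same array was subtracted, and each difference below is PARN shRNA minus a control on that scale. With 1 array per group the comparisons below carry no test and no replicate check. The only spread available is that between the control arrays and that between spots of 1 probe, so precision is limited by how many arrays there were. In RNA of a whole culture, a lower level in each cell and fewer cells expressing a gene cannot be told apart.

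PARN is a poly(A)-specific ribonuclease that shortens the poly(A) tail of mRNAs from the 3′ end. In the nucleus it also trims short adenosine tails from maturing non-coding RNAs, among them small Cajal body RNAs, H/ACA small nucleolar RNAs and the telomerase RNA. Small Cajal body RNAs guide the modification of spliceosomal RNAs, and small nucleolar RNAs guide that of ribosomal RNA.

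The libraries differed in ways that bear on every value. Across the retained probes the SD of the difference was 0.22 for PARN shRNA minus empty vector, 0.41 for PARN shRNA minus non-target shRNA and 0.42 for empty vector minus non-target shRNA. Counts of 2-fold differences were 56, 525 and 601 probes, respectively, so the non-target array stood apart from both others, and a difference was therefore required against each control. These 3 arrays and that of CNOT6 shRNA lay in slide row 1 and the other 3 in row 2, so levels on the CNOT6L, CNOT7 and NOC shRNA arrays also differ by row, whose part was not tested. Between spots of 1 probe the median SD on these arrays was 0.05 to 0.08. The line was checked by 12 squamous and epithelial markers, of which 8 were above background on the 3 arrays. SOX2 was bright (5.11, 5.38 and 5.15 on the empty vector, non-target and PARN shRNA arrays). KRT6A, KRT15, KRT17, PKP1, KRT8, KRT18 and EPCAM were also above background on all 3. TP63, KRT5 and KRT14, which define squamous cells, were above background only on the empty vector array, and DSG3 on none of the 3. Of the markers of other cell types, 5 of 8 for fibroblasts, 7 of 8 for leukocytes and 5 of 5 for endothelium were above background on the 3 arrays. Their summed signals, in units of the 75th percentile, were 0.241, 0.207 and 0.202 for fibroblasts, 14.5, 7.83 and 14.3 for leukocytes, mostly CD14, and 0.28, 0.139 and 0.255 for endothelium, in the same order. COL3A1, LUM and ITGB2 were below background on all 3 arrays.

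PARN mRNA itself was the first question, since it checks the label of the silenced array. Its probe gave 1.06 with empty vector, 0.87 with non-target shRNA and -0.16 upon PARN silencing. On the CNOT6, CNOT6L, CNOT7 and NOC shRNA arrays it gave 0.93, 0.59, 0.90 and 0.82, so the lowest of the 7 values was that of the silenced cells. The differences were -1.22 and -1.03 from the empty vector and non-target arrays, and PARN mRNA stood at 45.8% of the mean control level. Its 2 spots read -0.27 and -0.05 on the PARN shRNA array, below every control spot (0.79 to 1.12).

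None of the other deadenylases came near this difference. Of 12 retained members of the family, PARN was alone in reaching 2-fold, while 3 were above both controls and 4 below. TOE1, the nuclear deadenylase that also trims small nuclear RNAs, differed by +0.11 and +0.08. PAN2, the catalytic subunit of the PAN2-PAN3 complex, differed by -0.14 and -0.19. CNOT7 was measured by a pair of probes, at -0.02 and -0.10 for the first and -0.23 and -0.14 for the second. CNOT6 was at +0.01 and +0.11, and CNOT8, read on 10 spots, lay between the controls (-0.09 and +0.06). NOCT was above background but dimmer than the limit set on signal. Of 7 retained scaffold subunits of the CCR4-NOT complex, none reached 1.5-fold.

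Upon PARN silencing there were 11 probes at least 2-fold lower (0.0646% of the 17026) and 4 at least 2-fold higher (0.0235%). At 1.5-fold the counts were 75 lower (0.441%) and 16 higher (0.094%). By any amount, 29.1% of probes lay below both controls and 28.7% above both. Of the 75 probes, 65 also lay below all 4 other shRNA arrays, and of the 16, 14 lay above all 4. Both the calls and these counts use the same readings of the PARN shRNA array, so the counts are no separate check. They were not set against the share over all probes. The lower probes covered 54 named genes and the higher ones 12. Which direction held more calls depended on the setting: at 2-fold, 23 were higher and 11 lower when spots marked as outliers were kept, and 423 higher and 102 lower against the non-target array alone.

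**Figure D1:**
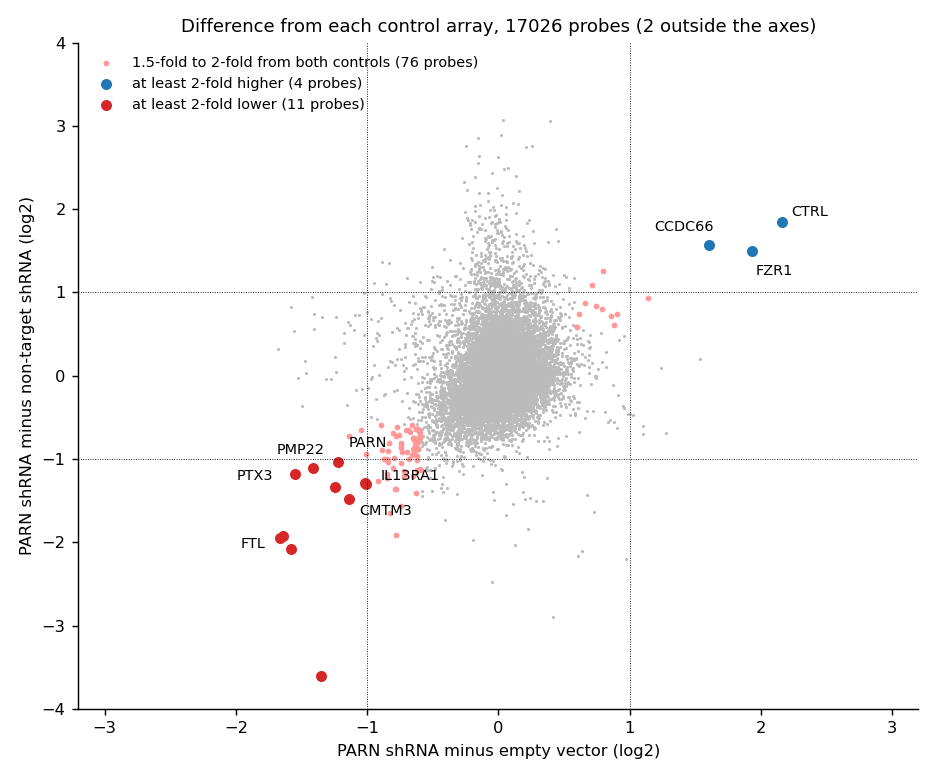
Each point is 1 of the 17026 retained probes, plotted by its log2 difference from the empty vector array (horizontal) and from the non-target array (vertical), with dotted lines at 2-fold. The cloud is taller than wide (SD 0.41 against 0.22), and the 11 probes at least 2-fold lower than both controls lie at the lower left, the 4 higher ones at the upper right, 1 of them beyond the axes.

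Most probes called at 1.5-fold were printed on a single spot, 50 of the 75 lower and 13 of the 16 higher. Of 631 retained probes printed on 10 spots, 6 were at least 1.5-fold lower than both controls (0.951%) and 0 were higher. Over all retained probes the share called higher was 0.094%, so 0 of 631 is near it. Of 4159 on 2 spots, 19 were lower (0.457%) and 3 higher (0.0721%). Of 12236 on a single spot, 50 were lower (0.409%) and 13 higher (0.106%). Among the 54 lower genes, 16 had 2 or more retained probes, and in 11 of these every probe lay below both controls. In 4 of the remainder another probe lay between the controls (ANP32E, SYT1 and ZNF428 among them), and in MYH9 another probe lay above both.

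FTL, the light chain of the iron storage protein ferritin, was the lowest of the named genes relative to both controls. The first of its probes read 3.48 and 3.76 on the empty vector and non-target arrays and 1.82 upon PARN silencing. On the CNOT6, CNOT6L, CNOT7 and NOC shRNA arrays it read 3.67, 3.91, 3.80 and 3.63. The silenced cells thus lay clearly apart from all 6 other cultures, which spanned 3.48 to 3.91. Differences were -1.66 and -1.94, leaving 28.7% of the mean control level. A second probe, on 2 spots, gave 3.72, 4.002 and 2.07 in the same order, with spot SDs of 0.02, 0.01 and 0.065. FTL has closely similar pseudogene copies in the genome, and probe sequences were not used here, so the share of each copy in the signal is uncertain. An unnamed non-coding probe over chr7:45983575-46089425 (hg19, from the file's annotation, reverse strand) moved by a similar amount, from 2.37 and 2.86 to 0.79.

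TFRC, the transferrin receptor that brings iron into the cell, was lower as well. Its 10-spot probe read 4.99 (SD 0.08 between 8 spots) and 5.01 (SD 0.07, 9 spots) on the controls and 4.37 (SD 0.08, 9 spots) upon silencing. On the other shRNA arrays it read 5.14 to 5.28, and no spot of the silenced array (highest 4.48) reached any control spot (lowest 4.89). The differences were -0.62 and -0.64. Of 16 iron handling genes retained, 8 lay below both controls and 3 above, where 32.2% of all genes were below and 25.9% above. FTL and TFRC were the 2 members beyond 1.5-fold. SLC39A14, a zinc and iron importer, was at -0.36 and -0.14, and CISD1, a mitochondrial iron-sulphur protein, at -0.12 and -0.15. The list median was -0.01 against empty vector and -0.10 against non-target shRNA, near the medians of all 10890 genes (-0.002 and -0.04).

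The remaining lower genes are taken by their known roles, a grouping made after their values were seen. Of those that encode secreted proteins, PTX3, a soluble pattern recognition protein released in inflammation, read 2.40 and 2.04 on the controls and 0.85 upon silencing, each over 10 spots with SDs of 0.07 to 0.09. The other shRNA arrays read 2.24, 2.30, 2.53 and 2.25, and the differences of the silenced array were -1.55 and -1.18. CCL2, a monocyte-attracting chemokine, read -0.68 and -0.71 on the controls and -1.52 upon silencing (SD 0.05 over 8 spots). Here the other arrays were spread widely, from -0.85 for CNOT7 shRNA to 0.61 for CNOT6 shRNA, though all remained above the silenced cells. THBS1, a matrix glycoprotein, was at -0.65 and -0.75 on its brighter probe and at -0.25 and -0.36 on the other. FBLN1, an extracellular matrix fibulin, was below both controls on all 3 of its probes, by -0.72 and -1.15 on the brightest.

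**Figure D2:**
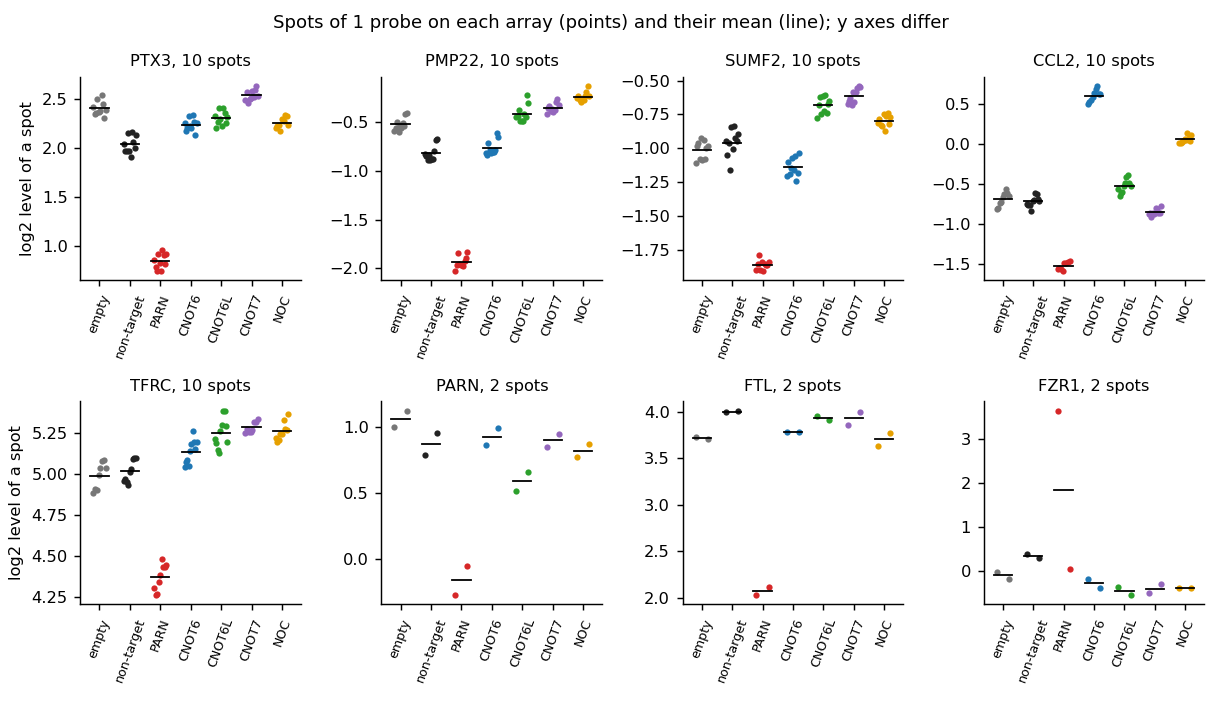
Every point is 1 spot of the named probe on 1 array (log2 level; y axes differ between panels) and the line is the mean over spots, with 1 array per plasmid. For PTX3, PMP22, SUMF2, CCL2 and TFRC (10 spots each), PARN and FTL (2 spots) all spots of the PARN shRNA array lie below those of the other 6 arrays, whereas the 2 FZR1 spots of that array read 0.04 and 3.63.

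Several of the lower genes encode membrane proteins. PMP22, a tetraspan membrane protein of myelin that epithelia also express, read -0.52 and -0.82 on the controls and -1.94 upon silencing over 10 spots, with the other shRNA arrays at -0.76 to -0.24. This amounted to -1.41 and -1.11, or 41.7% of the mean control level. CMTM3, a MARVEL-domain protein, was lower on both of its probes. The brighter went from 0.79 and 1.07 to -0.23 and the dimmer from -1.67 and -1.33 to -2.81, and the remaining arrays lay above these values in each case. IL13RA1, a chain of the interleukin-13 receptor, went from 0.45 and 0.74 to -0.56, with 0.02 on the CNOT6 shRNA array as the next lowest. It was the probe closest to the 2-fold limit from inside (-1.01 and -1.30), and a dimmer IL13RA1 probe that was not retained read +0.13 and -0.65. CD44, the hyaluronan receptor, was at -0.80 and -1.11 and DAG1, which encodes dystroglycan, at -0.79 and -1.36, both lowest of 7 upon silencing. GNG10, a G protein gamma subunit, was lower on both probes, at -0.75 and -0.81 for the brighter and -0.77 and -0.62 for the other.

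Enzymes were also among the genes beyond 1.5-fold. ALG1, the mannosyltransferase that starts mannose addition in N-glycan assembly, had 3 retained probes and 1 dimmer probe, and all 4 were below both controls; ALG1 too has pseudogene copies. Its brightest read 0.67, 0.67 and -0.22 on the empty vector, non-target and PARN shRNA arrays, and 0.62 to 0.85 on the others. SUMF2, a relative of the sulphatase-modifying factor of the endoplasmic reticulum, read -1.02, -0.96 and -1.86 over 10 spots, and -1.14 to -0.61 elsewhere. GLO1, the glyoxalase that detoxifies methylglyoxal, was at -0.66 and -0.95.

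**Figure D3:**
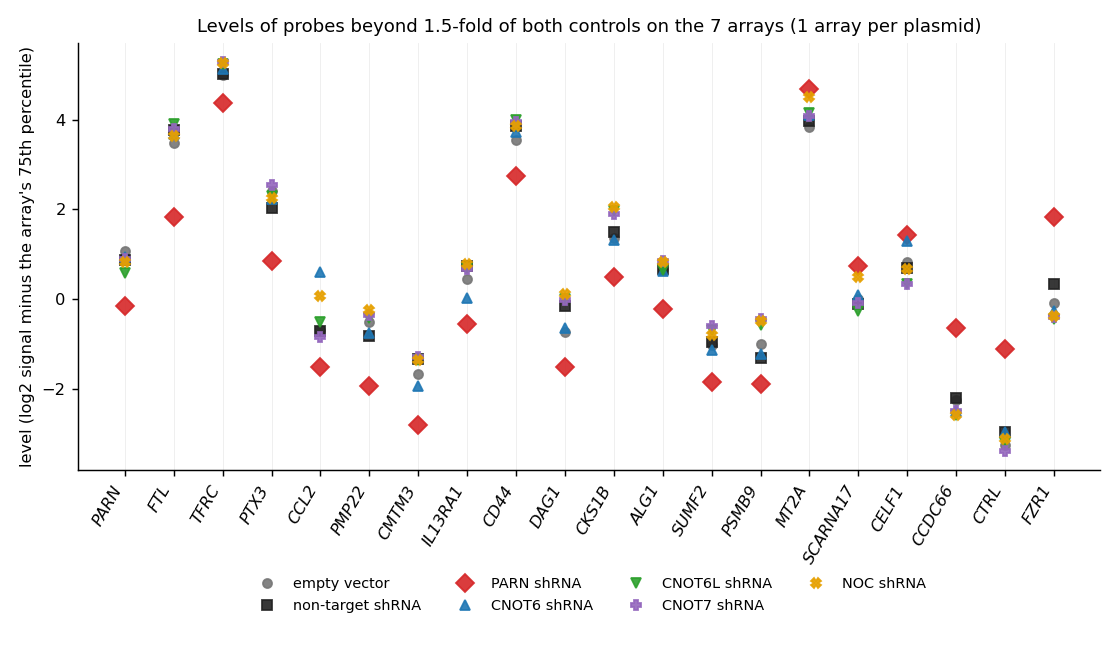
Levels (log2 signal minus the 75th percentile of the array) of 20 named probes on the 7 arrays, with 1 symbol per array. Red diamonds mark PARN shRNA, which is lowest of 7 for the 14 genes from PARN to PSMB9 (for CMTM3 and CKS1B the dimmer probe is shown) and highest for the 6 genes from MT2A on.

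Genes of cell division were slightly lower in most cases. CKS1B, a subunit that cyclin-dependent kinases need, was at -0.47 and -0.59 on its brighter probe (5.02, 5.13 and 4.55) and at -0.87 and -1.003 on the other. Of 37 mitosis genes retained, 25 were below both controls and 4 above, where 32.2% of all genes were below and 25.9% above. The median differences were -0.12 and -0.13, and none reached 1.5-fold. TTK, the spindle checkpoint kinase, read 0.28, 0.27 and -0.13, CDK1, the kinase of mitotic entry, 1.68, 1.76 and 1.37 over 10 spots, and CCNB2, one of its cyclins, 3.46, 3.53 and 3.19. The list was also low on other arrays, with medians against the control mean of -0.13 for PARN shRNA, -0.19 for CNOT6, -0.30 for CNOT6L, -0.24 for CNOT7 and -0.29 for NOC shRNA. Of 40 DNA replication genes, 23 were below both controls and 4 above (medians -0.08 and -0.13). The medians against the control mean were -0.10 for PARN shRNA and -0.05 for CNOT6 shRNA, both of slide row 1, and 0.04, 0.10 and 0.11 for CNOT6L, CNOT7 and NOC shRNA, all of row 2. PCNA, the sliding clamp of replication, read 2.11 and 2.18 on the controls and 1.91 upon silencing, and MCM6, a helicase subunit, 2.40, 2.33 and 2.12. A further 11 genes of the TRAIL and FAS death receptor pathway had 8 members below both controls, among them BID (-0.31 and -0.54), and 1 above. Of 21 p53 targets 10 were below both, among them DDB2 (-0.37 and -0.29), 3 above both and 8 between. The p53 list medians were -0.02 against empty vector and -0.22 against non-target shRNA.

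Most of the antigen processing genes examined lay below both controls. Of 14 genes of the immunoproteasome, peptide loading and MHC class I, a group formed after the values were seen, 12 lay below both controls and 0 above. Over all genes 32.2% lay below both and 25.9% above. PSMB9, a catalytic subunit of the immunoproteasome, read -1.01 and -1.31 on the controls and -1.91 upon silencing, while the CNOT6L, CNOT7 and NOC shRNA arrays read -0.58, -0.45 and -0.50. PSMB8, another such subunit, read -0.79, -0.53 and -1.25, against 0.03 on the NOC shRNA array. HLA-B was at -0.20 and -0.66, and B2M, the light chain of MHC class I, at -0.14 and -0.23 over 10 spots. The medians of the group against the control mean were -0.19 for PARN shRNA and 0.12, 0.23, 0.25 and 0.34 for CNOT6, CNOT6L, CNOT7 and NOC shRNA. The wider interferon response list had 18 of 28 genes below both controls and 2 above. Its members included SP110, a nuclear body protein (-0.44 and -0.47 over 10 spots), and UBE2L6, the ISG15 conjugating enzyme (-0.48 and -1.12). The list medians were -0.15 and -0.44, and that of empty vector minus non-target shRNA was -0.20. IFIT1, an interferon-induced translation inhibitor, read -2.83, -1.04 and -3.02 and MX1, an antiviral GTPase, -0.86, 0.21 and -0.98 on the empty vector, non-target and PARN shRNA arrays, so the non-target array was the one apart for both.

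On the higher side, each of the 4 probes at 2-fold rested on the reading of a single spot. Moreover, 2 of them, for CTRL and an unnamed transcript, passed the limit on signal only through their high level in the silenced cells, and 2 higher and 13 lower probes were counted when the limit was set on the mean of both controls, an alternative chosen after seeing the data. CTRL, which encodes a chymotrypsin-like protease, read -3.27 and -2.96 on the controls and -1.11 upon silencing, with -3.39 to -2.96 on the remaining arrays. CCDC66, a microtubule-associated protein of cilia, read -2.25, -2.22 and -0.65, and -2.60 to -2.49 elsewhere. The FZR1 probe, for an activator of the anaphase-promoting complex, had 2 spots whose readings on the PARN shRNA array were 0.04 and 3.63, so that the average of 1.84 stands for neither. The fourth was an unnamed probe over chr6:14796596-15118246 (hg19, reverse strand), at -3.43 and -4.07 on the controls, 2.52 upon silencing and -3.17 to -3.02 elsewhere. Among the 12 genes at 1.5-fold, CELF1, an RNA-binding protein that recruits PARN to mRNAs, read 0.82 and 0.69 on the controls and 1.43 upon silencing on 2 spots. The CNOT6 shRNA array read 1.30 for CELF1 and the remaining arrays 0.33 to 0.68. EXOSC6, a subunit of the RNA exosome, was at +0.44 and +0.44, below 1.5-fold. Of 20 PARN-binding and AU-rich element proteins retained, CELF1 was the 1 member beyond 1.5-fold, 5 were above both controls and 2 below. Over all genes 25.9% were above both and 32.2% below.

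Small Cajal body and small nucleolar RNAs, which include RNAs that PARN is known to trim, were examined as classes. The classes were formed after their values were seen. Of 12 small Cajal body RNA probes above background on the 3 arrays, whatever their signal, 11 were above both controls, with medians of +0.28 and +0.51. Over all retained probes, which exclude dim ones, 28.7% were above both. That share was 39.4% for retained lncRNA probes and 34.7% for lincRNA probes, against 26.8% for protein-coding ones. The 7 brighter ones that were retained are described first, of which SCARNA7 passed the limit on signal only through its level in the silenced cells. SCARNA17 read -0.01 and -0.10 on the controls, 0.73 upon silencing and -0.27, -0.08, 0.09 and 0.50 on the CNOT6L, CNOT7, CNOT6 and NOC shRNA arrays. SCARNA12 read 0.86, 0.71 and 1.14, SCARNA13 -0.99, -0.96 and -0.63, SCARNA16 -1.57, -1.75 and -1.16 and SCARNA9 -1.71, -1.87 and -1.43 on the empty vector, non-target and PARN shRNA arrays. In 6 of the 7 the silenced cells had the highest of the 7 levels, the exception being SCARNA7 (-2.58, -2.79 and -2.17), for which the NOC shRNA array read -2.06. SCARNA5 differed from the empty vector by only +0.19 but from the non-target array by +1.45. Of the 5 dimmer probes of the class 4 were above both controls, and SCARNA2 was below both (-0.17 and -0.24). Each of these RNAs had 1 spot.

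The same 7 probes were above both controls in 4 cases upon silencing of CNOT6, 4 of CNOT6L, 1 of CNOT7 and 5 of NOC, comparisons that share the control arrays. The median levels against the control mean were +0.50 for PARN shRNA, +0.15, +0.10 and -0.07 for the CCR4-NOT subunits in that order and +0.30 for NOC shRNA. The labelling kit used here primes at poly(A), so for RNAs without a lasting tail the signal need not follow abundance. Ribosomal RNA probes, a measure of such priming and of RNA quality, moved on these arrays too: 3 of 6 were above both controls, with medians of +0.50 against empty vector and +0.04 against non-target shRNA. Their part in the small RNA values was not tested.

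Of 16 small nucleolar RNA probes above background, taken by SNORA and SNORD symbols, 10 were above both controls and 0 below, with medians of +0.15 and +0.56. RNU105B, annotated as a small nucleolar RNA under another symbol, is not among them and lay between the controls (-0.09 and +0.47). The box C/D probes among the 16 (SNORD3B-1, SNORD15A, SNORD17 and SNORD116-19) were all above both. H/ACA probes, the type named above as trimmed by PARN, were mixed. Those for SNORA28, SNORA53, SNORA59B, SNORA73A and SNORA74A and a SNORA73B probe lay between the controls. Among the 12 retained, 9 were above both and 0 below. SNORA62, an H/ACA guide, read -1.90, -2.001 and -1.42, and the other shRNA arrays read -2.04 to -1.76. SNORA74B, retained only through its level in the silenced cells, read -2.39, -3.11 and -1.89, and SNORD17, a box C/D guide, -1.94, -2.44 and -1.71. The class was not higher on the PARN shRNA array alone, since the median against the control mean was +0.32 for PARN shRNA, +0.31 for CNOT6, +0.08 for CNOT6L, +0.25 for CNOT7 and +0.30 for NOC shRNA. TERC, the RNA template of telomerase, read -0.07 and 0.45 on the controls, which differ by more than most, and 0.74 upon silencing. It read 0.33 to 0.43 on the other shRNA arrays. RNVU1-18, a variant U1 RNA, read 1.93, 1.70 and 2.39, with 1.55 to 2.09 elsewhere. The protein partners differed little: of 18 genes of the dyskerin complex, telomerase and shelterin 7 were above both controls and 5 below, and TERC was the member farthest above both. Of 18 snoRNA host genes 9 were above both and 1 below, with medians of +0.09 and +0.04, and of 21 genes of oligoadenylation and the nuclear exosome 5 were above both and 7 below. For these lists the shares over all genes were 25.9% above and 32.2% below.

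**Figure D4:**
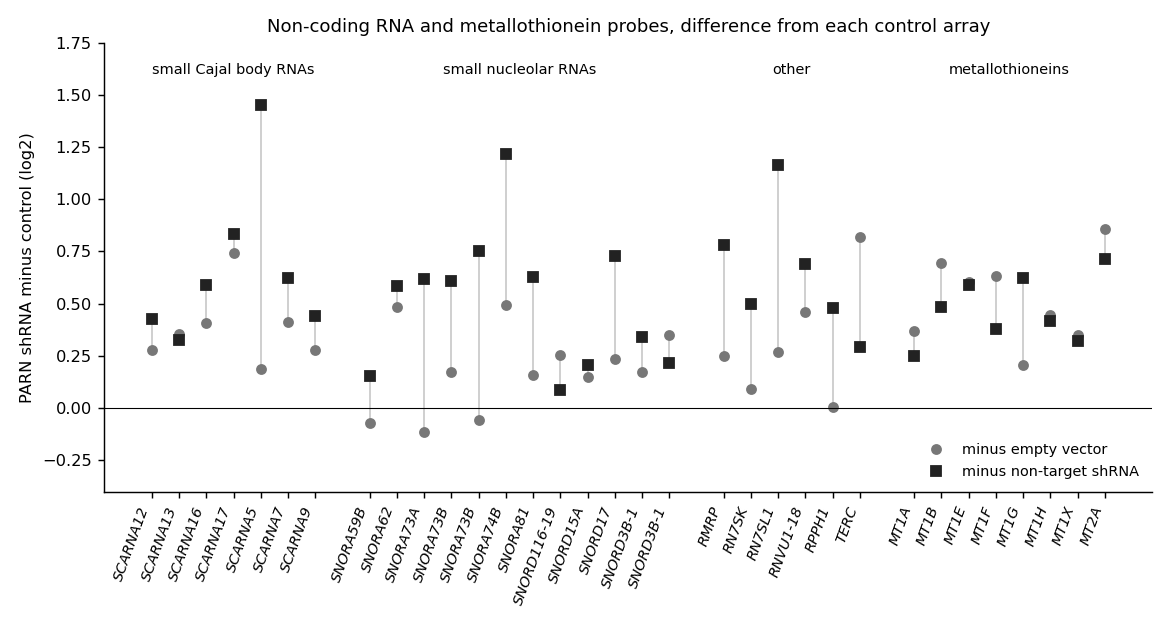
Log2 difference of the PARN shRNA array from the empty vector (grey circles) and non-target (black squares) arrays for each retained probe, with 1 array per plasmid and a grey line joining both values. The 7 retained small Cajal body RNAs, SCARNA7 included, and the 8 retained metallothioneins are above 0 against both controls, while among small nucleolar RNAs SNORA59B, SNORA73A and 1 SNORA73B probe are below 0 against empty vector.

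Metallothioneins, small cysteine-rich proteins that bind zinc and copper, were higher throughout, in a family singled out after its values were seen. All 8 retained members were above both controls, with medians of +0.53 and +0.45, where 25.9% of all genes were above both. MT2A, the major human form, read 3.83 and 3.97 on the controls and 4.69 upon silencing, the highest of 7, the next being 4.51 on the NOC shRNA array. MT1E read 0.64, 0.66 and 1.24, and was higher still on the CNOT6L (1.51) and NOC (1.34) shRNA arrays. The remaining members differed by +0.21 to +0.70 from empty vector and +0.25 to +0.62 from non-target shRNA. The family median against the control mean was +0.47 for PARN shRNA, +0.08 for CNOT6, +0.63 for CNOT6L, +0.24 for CNOT7 and +0.57 for NOC shRNA. Those 2 arrays of CNOT6L and NOC shRNA thus had the family higher still. Members are near-identical in sequence, and their probes may read one another's transcripts.

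Since all of these genes were higher, the 250 bases before their start sites were taken from RefSeq (GRCh38.p14), in which 4 of them matched by symbol. Metal response elements are bound by the zinc-dependent factor MTF1, and TGCACNC is a form of their core. Only that form was searched, on both strands, and stands in capitals below, overlapping matches being joined. Stretches reading tgcgccc, for instance in MT2A and MT1X, were neither counted nor marked. All 4 promoters held TGCACNC, with 5 matches for MT2A, 4 for MT1H, 3 for MT1B and 2 for MT1X. It stood at least once in 9.73% of all 27305 promoters and 3 times or more in 0.183%. A match is a description of the letters and not a mapped site. All 4 lie on chromosome 16, plus strand, at chr16:56608334-56608583 for MT2A, chr16:56669564-56669813 for MT1H, chr16:56651636-56651885 for MT1B and chr16:56682220-56682469 for MT1X.
MT2A: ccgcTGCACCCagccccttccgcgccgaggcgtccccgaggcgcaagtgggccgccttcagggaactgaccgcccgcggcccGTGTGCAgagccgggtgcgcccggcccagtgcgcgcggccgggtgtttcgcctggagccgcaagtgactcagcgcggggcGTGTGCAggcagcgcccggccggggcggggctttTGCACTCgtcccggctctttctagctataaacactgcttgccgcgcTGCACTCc
MT1H: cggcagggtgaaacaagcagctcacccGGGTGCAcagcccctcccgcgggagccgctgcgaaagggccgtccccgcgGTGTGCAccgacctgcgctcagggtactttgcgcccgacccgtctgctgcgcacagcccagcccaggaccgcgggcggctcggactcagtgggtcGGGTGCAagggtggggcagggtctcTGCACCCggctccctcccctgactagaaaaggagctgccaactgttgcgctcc
MT1B: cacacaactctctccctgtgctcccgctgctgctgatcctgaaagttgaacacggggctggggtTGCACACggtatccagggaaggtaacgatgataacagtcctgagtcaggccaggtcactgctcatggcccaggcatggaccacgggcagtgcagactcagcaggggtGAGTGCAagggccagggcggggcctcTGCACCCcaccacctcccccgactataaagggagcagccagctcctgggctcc
MT1X: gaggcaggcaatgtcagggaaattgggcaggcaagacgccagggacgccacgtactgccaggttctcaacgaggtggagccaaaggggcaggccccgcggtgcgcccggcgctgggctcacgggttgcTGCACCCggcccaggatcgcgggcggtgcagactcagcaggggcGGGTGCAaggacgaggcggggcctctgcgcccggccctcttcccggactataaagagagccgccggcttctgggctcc

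Histone genes, whose mRNAs mostly end without a poly(A) tail, were also slightly higher. Of 49 retained, 32 were above both controls and 8 below, with medians of +0.15 and +0.09, none beyond 1.5-fold and a median below 0 without scaling. H4C13 read 4.40 and 4.43 on the controls and 4.72 upon silencing, below the 5.26 of the CNOT6 shRNA array. The list medians against the control mean were +0.14 for PARN shRNA, +0.28 for CNOT6, -0.21 for CNOT6L, -0.26 for CNOT7 and -0.01 for NOC shRNA. Cytosolic ribosomal protein genes had 31 of 78 members above both controls and 4 below, with medians of +0.13 and -0.01. Over all genes 25.9% were above both and 32.2% below. With quantile normalization the ribosomal protein counts turned to 10 above and 29 below, so their direction depends on the scaling.

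Among mRNAs described by the study as related to PARN activity, none of those retained reached 1.5-fold against both controls. PLAU, the urokinase plasminogen activator, read -1.66, -3.23 and -1.64 on 10 spots and TNF 1.30, -0.29 and 1.34, so that for both the silenced cells lay beside the empty vector. FOS was at -0.11 and -0.06 and JUN at -0.27 and -0.42, and the 2 VEGFA probes lay on opposite sides of the controls (+0.06 and +0.44, -0.27 and -0.55). CDKN1A was dimmer than the limit on signal and CXCL8 was not above background. PTGIR, the prostacyclin receptor, and FGFBP2 and AATK, which the study singled out upon PARN silencing, were likewise too dim to be retained, and CTSO had no usable spot on the PARN shRNA array. For PTGIR the levels were -5.14, -7.42 and -5.38, and for FGFBP2 -3.52, -5.71 and -3.57, with the non-target array again the one apart. The brighter AATK probe, read on 10 spots, gave -3.80, -4.47 and -3.61, the last being the highest of the 7 arrays. The study also measured PTGIR and AATK by RT-qPCR and reported both as higher upon PARN silencing. Its reference there was wild-type cells, which were not analysed here.

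Of 30 cholesterol and fatty acid synthesis genes 20 were below both controls and 3 above, with medians of -0.07 and -0.36, against -0.32 between the control arrays themselves. INSIG1, the sterol sensor that retains SREBP, read -0.33, 0.37 and -0.54, and FDFT1, squalene synthase, 1.6, 2.11 and 1.42. PFKL, the liver-type phosphofructokinase of glycolysis, was at -0.58 and -1.13, just short of 1.5-fold. Of 61 respiratory chain genes 25 were below both controls and 15 above, of 31 proteasome genes 10 and 6, and of 34 translation initiation factors 8 and 7. Beside all counts of this paragraph stand the shares over all genes, 32.2% below both controls and 25.9% above. Proteasome genes (32.3% and 19.4%) and translation initiation factors (23.5% and 20.6%) were near or under these shares. SRXN1, a sulphiredoxin of the NRF2 pathway, was at -0.49 and -0.56 while 10 of 24 members of that list were below both. Among cell junction genes 11 of 26 were above both controls and 5 below, among them CLDN4, a claudin, at +0.44 and +1.77. The counts above and below both controls were 7 and 12 of 28 for the unfolded protein and integrated stress response, 6 and 11 of 30 for glycolysis and hypoxia, 7 and 4 of 16 for immediate early factors and MYC, 4 and 4 of 9 for inflammatory cytokines and chemokines, 8 and 6 of 21 for heat shock proteins and metallothioneins, 2 and 4 of 12 for keratins and desmosomes and 3 and 6 of 16 for epithelial-mesenchymal transition. Muscle contraction genes, of which 13 of 45 on the array were retained, had medians of -0.03 and +0.42, which is the distance between the controls (+0.42).

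**Figure D5:**
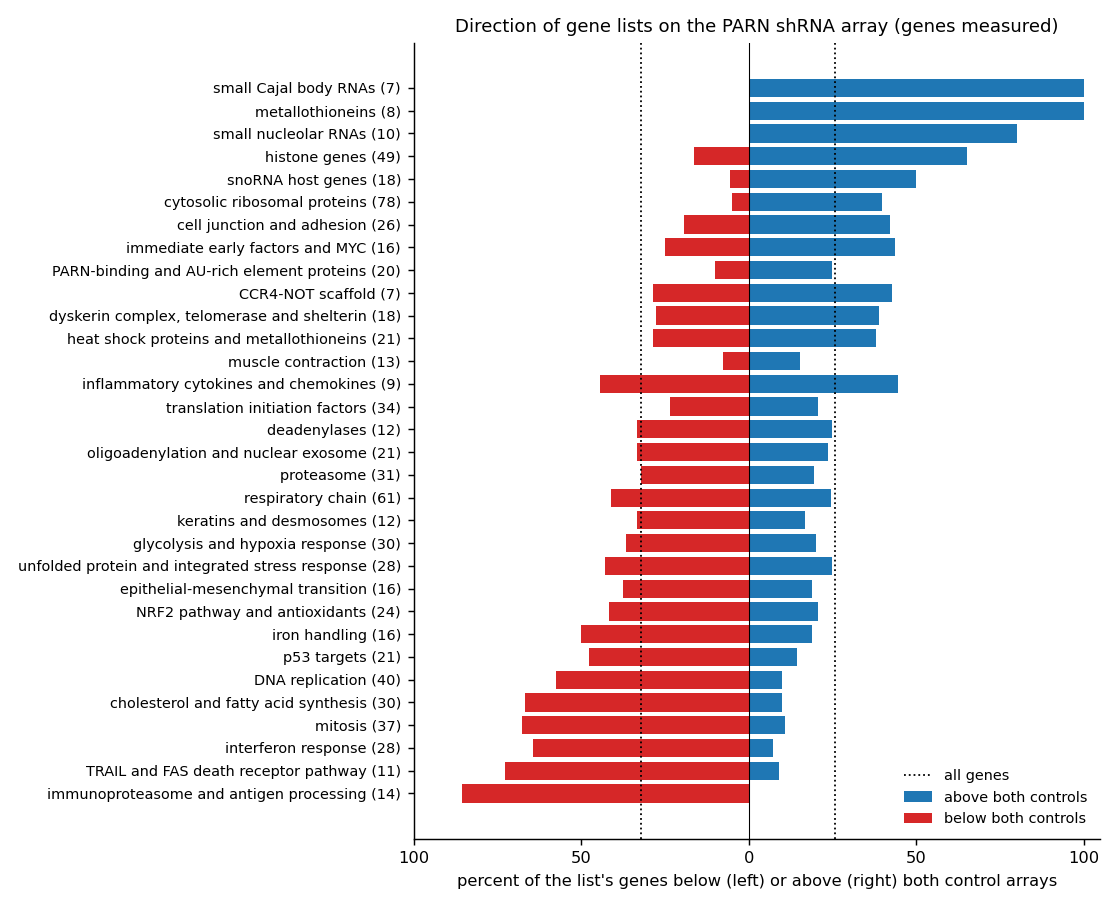
For each gene list, with the number of genes measured in parentheses, the percent of genes below both controls (red, left) and above both (blue, right) on the PARN shRNA array, with dotted lines at the 32.2% and 25.9% of all 10890 genes. Immunoproteasome genes are at the bottom (85.7% below) and the retained small Cajal body RNAs and metallothioneins at the top (100% above). These lists were formed after their values were seen, so their ranks against the other lists carry no weight.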

How the data were processed

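RNA of 7 NCI-H520 cultures was measured on 1-colour Agilent SurePrint G3 Human GE arrays (1 array each), and the 3 arrays of PARN shRNA, empty vector and non-target shRNA were compared. The deposited scanner files hold processed signal intensity from Agilent Feature Extraction 10.7.3.1, background-corrected by the authors' scanner software and not normalized between arrays. The authors' deposited series table holds log2 processed signals, shifted per array and with the median of the 7 arrays subtracted per probe; it served as an alternative. Labelling primed at poly(A), so RNAs without a tail are measured less directly.

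Outlier and control spots were left out, spots of a probe were averaged on the log2 scale and the 75th percentile of each array was subtracted. A probe entered when at least 50 percent of its spots were well above background on each of the 3 arrays and its mean log2 level exceeded -2.6, the median of such probes. It was called when at least 2-fold (or 1.5-fold) away from each control. A gene in a list is its brightest probe. Symbols follow the GRCh38.p14 RefSeq table. The 75th percentile signal was 1366 to 3986 units per array, and with 1 array per group no replicate error exists, so spot SDs cover technical error only.

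Genes named by rule were PARN and other deadenylases, called genes, up to 4 members per list in the direction of its median, transcripts discussed by the study, and 10-spot probes beyond 1.5-fold. Further genes between 1.5-fold and 2-fold and the small RNA, metallothionein and antigen processing lists were picked after their values were seen. All members and lists were chosen with earlier results of these data known. Alternatives were other scalings (none, quantile, cyclic loess, normexp with offset 50), filters, thresholds, leaving out a control, adding the CNOT6 shRNA array, and limma. The values just outside the 2-fold limit are not reported here. Scripts were tested on simulated data. Tools were R 4.3.3, limma 3.58.1, Python 3.11.15, pandas 2.3.3 and numpy 2.4.6.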

Additional observations from a re-analysis of the deposited data

How the results depend on the processing

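The PARN difference from the mean of both controls was -1.13 and lay at -1.46 without scaling; leaving out either control gave -1.22 to -1.03. Against 4 probes at least 2-fold higher and 11 lower, the counts were 16 and 75 at 1.5-fold, 1 and 0 at 4-fold, and 37 and 62 with no filter on mean signal. Probes on 2 or more spots gave 1 higher and 5 lower. Keeping spots marked as outliers gave 23 higher and 11 lower, which turned the balance of calls. A filter that kept only the brightest probes gave 1 higher and 8 lower. With no scaling 63 were lower, so the share of higher calls was 6.0% rather than 26.7%. Adding the CNOT6 shRNA array left 7 lower. With a single control the counts ranged from 12 to 423 higher and from 44 to 102 lower: without the empty vector array 423 were higher and 102 lower, which also turned the balance, and without the non-target array 12 and 44. A limit on the mean signal of both controls, added after seeing the data, left 2 higher and 13 lower. With limma, in which the lone PARN shRNA array is assumed to vary like the 2 control arrays, 0 probes in either direction passed an adjusted p of 0.05, while 29 higher and 127 lower had an unadjusted p below 0.05. The smallest adjusted p was 0.0996. Quantile and cyclic loess normalization, normexp and the authors' table gave 8 to 12 lower and 4 higher.

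Without scaling, the median of all genes shifted by -0.331. With it the median of 17 of 33 gene lists went from above 0 to below 0 (-0.324 to -0.079) and that of 0 lists the other way. Those whose medians against each control and against their mean had all been above 0 were -0.303 for the dyskerin complex, telomerase and shelterin, -0.252 for snoRNA host genes, -0.079 for mRNAs related to PARN activity, -0.193 for histone genes and -0.266 for cell junction genes. Scaling subtracts 1 value per array, so leaving it out moved the lists by similar amounts. Relative to the median of all genes, 37 histone genes were above both controls and 6 below, with scaling and without. The cause of shifts under the other settings was not tested. No paired analysis was possible because the groups share only replicate number 1. Signal over background limits dim probes: 17027 above background were left out for low signal, and 33 of them were at least 2-fold higher and 51 lower than both controls.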

Other observations

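Some values belong to none of the comparisons above. Of 8352 gene probes not above background on all 3 arrays, 60 were above it on the PARN shRNA array alone and 621 on both control arrays but not on the PARN shRNA array. Lower on the silenced array was also an unnamed probe that read 3.91, 4.01 and 2.66 on the empty vector, non-target and PARN shRNA arrays and 3.91 to 4.82 on the others. A further unnamed 10-spot probe, for transcript ENST00000316077, read -1.73, -1.54 and -2.57.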
